A study of Mus musculus with 32 samples.

Results

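The sub-polysomal fraction of 4T1 spheroids, the lighter part of a polysome gradient where mRNAs carry fewer than 3 ribosomes, was compared between spheroids silenced for Dhps and control spheroids. The comparison used 8 of the 32 libraries of the series and all 17757 genes of its count table. 4T1 is a mouse mammary carcinoma line that metastasises to lung. Both groups grew for 5 days in lung-like medium with 700 µM aspartate (ASP). The ASP shDHPS group (n = 4) carried a lentiviral pLKO vector with an shRNA against Dhps, and the ASP shSCR group (n = 4) carried the same kind of vector with a non-targeting shRNA. Each was a polyclonal, puromycin-selected line, the labels give a single shRNA per gene, and the 4 replicates of a group were separate spheroid pellets of that line, so the p-values cover the spread between pellets and not between shRNAs or lines.

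DHPS, deoxyhypusine synthase, attaches the aminobutyl group of the polyamine spermidine to a lysine of the translation factor eIF5A, and DOHH, deoxyhypusine hydroxylase, completes the modified residue, hypusine. Hypusinated eIF5A helps ribosomes through peptide bonds that form slowly and also acts in termination. Free mRNPs, initiating 40S complexes and mRNAs with few ribosomes run in the sub-polysomal fraction, and well translated mRNAs run deeper in the gradient. The level of an mRNA in this fraction reflects both how much of the mRNA a cell holds and where it lies in the gradient, and these cannot be told apart from this fraction alone. In bulk libraries, fewer cells of a type and less RNA per cell also cannot be told apart.

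The 8 libraries held 16391556 to 25639437 counts and 15543 to 16315 detected genes. No libraries held identical counts. One control library stood apart. ASP shSCR replicate 2 had rank correlations of 0.963 to 0.970 with the other controls across 10877 genes with a mean of at least 50 counts, against up to 0.986 among the others. It lay at 41.28 on the first principal component, which carried 40.3% of the variance, and the other 7 libraries lay between -19.76 and 13.09. Ribosomal protein mRNAs took 17.47% of its counts, against 9.25% to 14.09% in the others. Results are therefore given with all 8 libraries, and the values without ASP shSCR replicate 2 are given where they change the call of a gene selected by rule, which was so for 9 called and 1 uncalled genes.

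Dhps mRNA itself was about 4-fold lower in the silenced spheroids. Levels are given in CPM, counts relative to the library's total scaled by edgeR's TMM factors, for replicates 1 to 4 in order. Dhps (chr8:85071757-85075162, plus strand, GRCm38) measured 9.50, 10.4, 9.60 and 8.40 CPM in ASP shDHPS and 40.02, 32.1, 40.8 and 39.4 CPM in ASP shSCR. All 4 silenced libraries lay far below all 4 controls, and the log2 change was -2.01 (SE 0.16, adjusted p = 8.51e-08, edgeR). The other members of the pathway did not pass the test. Dohh measured 83.1 to 105 CPM in ASP shDHPS and 82.6 to 98.1 CPM in ASP shSCR, and the groups overlapped throughout (log2 change 0.03, SE 0.14, adjusted p = 0.944). Eif5a, which encodes the substrate, measured 1815 to 1910 CPM against 1359 to 2346 CPM (log2 change -0.04, SE 0.19, adjusted p = 0.943). Eif5a2, the second eIF5A gene, measured 13.8 to 22.8 CPM against 9.14 to 15.5 CPM (log2 change 0.48, SE 0.20, adjusted p = 0.225). The changes of Dohh and Eif5a were smaller than their standard errors and took either sign with other scalings.

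**Figure D1:**
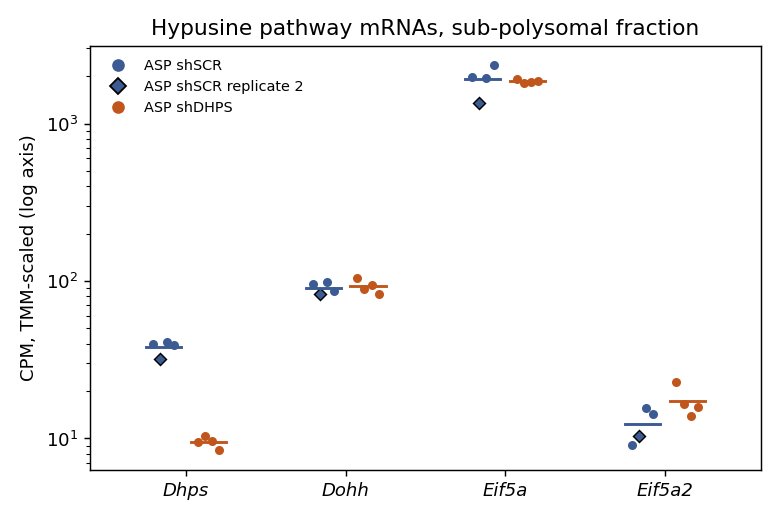
Sub-polysomal level of the 4 hypusine pathway genes in each library, in TMM-scaled CPM on a log axis; points are libraries, horizontal bars are group means, and the diamond is ASP shSCR replicate 2. Dhps separates the groups by about 4-fold (means 9.47 and 38.1 CPM), and the groups overlap for Dohh, Eif5a and Eif5a2.

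Across the transcriptome, 299 of 17757 genes passed an adjusted p of 0.05 in edgeR's quasi-likelihood test (1.68%), 103 of them higher in ASP shDHPS (0.580%) and 196 lower (1.10%). The groups did not overlap for 98 of the 103 and 186 of the 196, whereas 4.66% of all genes had groups that did not overlap with ASP shDHPS higher and 4.73% with it lower (9.39% together). Of the 10877 genes with a mean of at least 50 counts, 2.53% were called. The counts of called genes in the lists below are to be read beside these shares. The change exceeded 1 on the log2 scale for 31 of the higher genes, and lay under -1 for 78 of the lower genes. The median change was 0.83 among the higher genes, -0.90 among the lower genes and 0.008 over all genes.

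These counts moved when single libraries were left out. Each such fit also had a smaller group and so less power, and a lost call alone does not show that the library drove the change. For example, on leaving out 1 library the log2 change of Fdft1 ranged from -0.707 to -0.516, and that of Ankrd37 from -2.409 to -0.923. Without ASP shSCR replicate 2, 91 genes were higher and 144 lower, and 194 of the 299 calls were kept. That library was the highest of the 8 for 134 of the 183 lower genes with a mean of at least 50 counts (73.2%), against 23.8% of all genes at that level. It was the lowest of the 8 for 52 of the 92 higher genes at that level (56.5%), against 25.7% of all genes. Called genes mostly have groups that do not overlap, so their selection already places these extremes among the controls. The shares of all genes are therefore not a like baseline. Leaving out other libraries gave between 32 higher and 71 lower genes (without ASP shDHPS replicate 4) and 207 higher and 296 lower genes (without ASP shSCR replicate 3). Leaving out ASP shDHPS replicate 1 gave 40 and 90, ASP shDHPS replicate 2 gave 65 and 135, ASP shDHPS replicate 3 gave 49 and 90, and ASP shSCR replicate 1 gave 38 and 116. The excess of lower over higher genes also depended on scaling, since 109 genes were higher and 107 lower when libraries were scaled by their totals alone. Of the 57 called genes described below by rule, 28 passed the test in all 17 alternatives tried, and these carry most of the description.

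**Figure D2:**
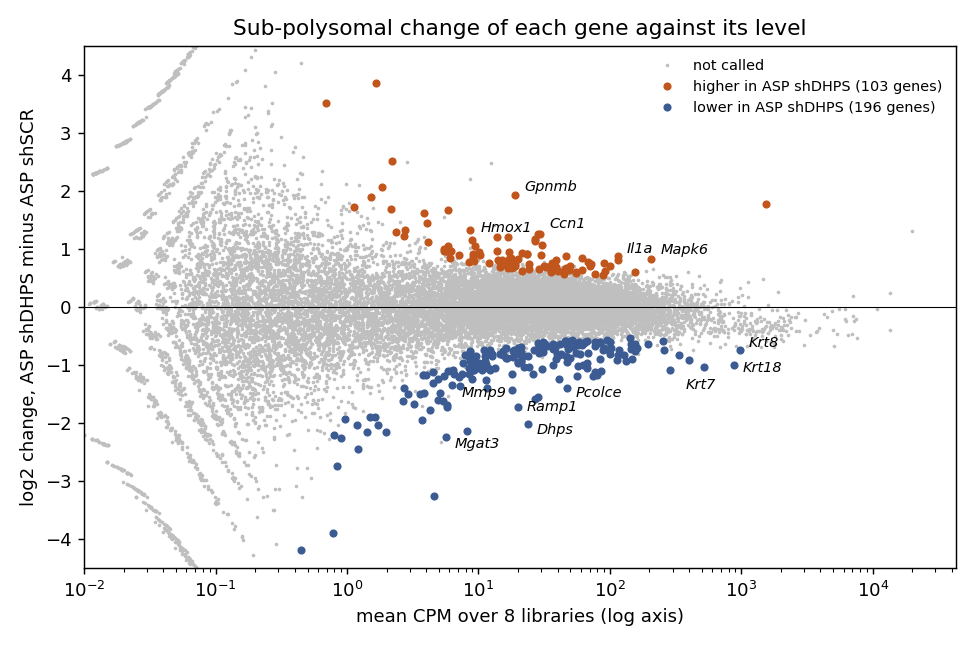
Log2 change of each gene (ASP shDHPS minus ASP shSCR) against its mean CPM over the 8 libraries on a log axis, with 17476 of 17757 genes shown and 3 called genes outside the axes. Coloured points are the 103 genes that were higher and the 196 that were lower at an adjusted p of 0.05. Dhps and Mgat3 lie at about -2, Gpnmb at 1.93, and Krt7, Krt8 and Krt18 are among the most abundant called genes.

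Gpnmb, Ccn1 and Atf3 were among the genes with the largest increases. Gpnmb, which encodes a transmembrane glycoprotein of lysosomes and melanosomes, measured 23.4, 24.3, 35.3 and 36.8 CPM in ASP shDHPS and 6.85, 8.02, 5.59 and 11.0 CPM in ASP shSCR. The groups were widely separated, with a 3.81-fold difference of means (log2 change 1.93, SE 0.21, adjusted p = 1.64e-05). Ccn1, a secreted matricellular protein induced by YAP and TGF-β, measured 36.0, 39.2, 43.7 and 48.2 CPM against 12.7, 18.8, 19.4 and 18.7 CPM. Every silenced library was well above every control (log2 change 1.27, SE 0.17, adjusted p = 0.000171). Atf3, a transcription factor gene switched on by many stresses, measured 20.4, 16.9, 18.4 and 21.1 CPM against 8.04, 7.78, 7.97 and 9.39 CPM. Its controls lay within a narrow band below every silenced library (log2 change 1.21, SE 0.17, adjusted p = 0.000273).

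Plk2, a polo-like kinase gene, rose by a log2 change of 1.26 (SE 0.19, adjusted p = 0.000607), and Lcp1, which encodes the actin-bundling protein L-plastin, by 1.17 (SE 0.16, adjusted p = 0.000238). Prnd, the prion-like protein doppel, rose by 1.20 (SE 0.17), and Msrb3, a methionine sulfoxide reductase, by 1.33 (SE 0.26). The C-type lectin gene Clec4d rose by 1.62 (SE 0.32) from 0.965 to 3.26 CPM in the controls to 4.73 to 6.83 CPM. Lncenc1, a long noncoding RNA known from embryonic stem cells, rose by 1.67 (SE 0.23). These 6 genes passed the test in all 17 alternatives. Fastkd1 and Acpp, with log2 changes of 1.33 and 1.22, lost the call on leaving out any of 3 and 6 of the 8 libraries (adjusted p up to 0.115 and 0.0897).

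Clec4d and Lcp1 are best known from leukocytes, and so is Lsp1, which moved the other way. Of 6 leukocyte markers, only Cd68 and Ptprc are in the count table. Cd68, the more abundant, measured 5.90 to 11.6 CPM, and Ptprc, which encodes the pan-leukocyte antigen CD45, measured at most 0.621 CPM and 12 counts in any library. Their summed level was 6.74 to 11.9 CPM in ASP shDHPS and 5.94 to 11.5 CPM in ASP shSCR, and neither passed the test. Among markers of other cells, Pdgfra measured 6.14 to 11.5 CPM, and Pecam1 and Hba-a1 at most 0.621 and 0.237 CPM. The mammary carcinoma markers Epcam (223 to 479 CPM) and Cdh1 (96.9 to 173 CPM) were present in all 8 libraries. Of the 10 measured markers of this list, 5 were lower, all keratins, and none was higher, with a median change of -0.64. Without ASP shSCR replicate 2 the median was -0.57 and 5 were lower, with Epcam (-0.67, adjusted p = 0.0283) among them in place of Krt8. Their summed level was 2274, 2320, 2816 and 2568 CPM in ASP shDHPS and 3856, 5665, 3387 and 3633 CPM in ASP shSCR, so the groups did not overlap, and Krt8 had the highest CPM (a scale not corrected for length) of the list in 7 of the 8 libraries. The 5 that did not pass were Epcam (-0.54, adjusted p = 0.118), Esrp1 (-0.34), Cldn7 (-0.32), Cldn4 (0.01) and Cdh1 (0.29).

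Mgat3, Ramp1 and Camk2n1 were among the genes with the largest decreases. Mgat3, the glycosyltransferase gene that adds the bisecting N-acetylglucosamine of N-glycans, measured 2.11, 2.04, 1.67 and 2.07 CPM in ASP shDHPS and 9.90, 13.4, 5.74 and 8.37 CPM in ASP shSCR. Even the lowest control was well above every silenced library, and the means differed 4.73-fold (log2 change -2.24, SE 0.27, adjusted p = 5.73e-05). Ramp1, a partner of the calcitonin-receptor-like receptor, measured 10.2, 11.6, 8.17 and 6.81 CPM against 28.4, 51.3, 21.0 and 21.1 CPM. The highest control was ASP shSCR replicate 2, and the log2 change of -1.73 (SE 0.24, adjusted p = 0.000238) became -1.37 without it (adjusted p = 8.35e-05). Camk2n1, an inhibitor of the calcium/calmodulin-dependent kinase CaMKII, had a log2 change of -1.95 (SE 0.31, adjusted p = 0.0011).

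Ap1m2, the µ subunit of the epithelial clathrin adaptor complex, was lower by a log2 change of -1.73 (SE 0.29), Lsp1, an actin-binding protein, by -1.69 (SE 0.25), and the protein tyrosine phosphatase gene Ptprv by -1.67 (SE 0.31). Ncmap, a myelin-associated protein, and Gper1, a G protein-coupled receptor for estrogen, had log2 changes of -1.62 and -1.61. Hoxaas2, an RNA antisense to the Hoxa cluster, had a log2 change of -1.77 (SE 0.32), and because the strand setting of the counting is not stated, reads of its partner genes cannot be told apart from it. All of these passed in the 17 alternatives. Fgfr1 and Ankrd37 were less stable. Fgfr1, the fibroblast growth factor receptor gene, had a log2 change of -1.62 (SE 0.35, adjusted p = 0.0169) and lost the call without ASP shDHPS replicate 2 or 3 or ASP shSCR replicate 4 (adjusted p up to 0.0755). Ankrd37, a hypoxia-responsive gene, measured 36.1 CPM in ASP shSCR replicate 2 and 4.81 to 7.13 CPM in the other controls, and its log2 change of -2.13 became -0.92 without that library (adjusted p = 0.1), and the call was also lost without ASP shDHPS replicate 2 or 4.

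Several keratins, the intermediate filament proteins of epithelial cells, were lower. Of 21 keratin genes in the count table, 8 had a mean of at least 50 counts. Of these 8, the simple-epithelial Krt7, Krt8, Krt18 and Krt19 and the stratified-epithelial Krt13 and Krt14 were lower, Krt10 (0.12) and Krt80 (0.14) did not pass the test, and none was higher. Without ASP shSCR replicate 2, 5 keratins were lower. The median change over all 21 was -0.78, against 0.008 over all genes. Keratins were picked as a family after their values had been seen.

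Krt7 (chr15:101411043-101430313, GRCm38) measured 304, 329, 395 and 333 CPM in ASP shDHPS and 674, 929, 614 and 569 CPM in ASP shSCR. The groups were well apart, and the means differed 2.05-fold (log2 change -1.03, SE 0.18, adjusted p = 0.00272). Krt19 measured 38.7, 41.2, 50.8 and 44.9 CPM against 74.8, 134, 71.2 and 82.0 CPM (log2 change -1.04, SE 0.18, adjusted p = 0.00285). Krt14, the keratin of basal cells, measured 35.0, 41.7, 46.3 and 40.7 CPM against 66.8, 73.6, 74.9 and 66.2 CPM, with little spread inside either group (log2 change -0.78, SE 0.15, adjusted p = 0.00463). Krt7, Krt14 and Krt19 passed the test in every alternative. Krt13 had a log2 change of -1.36 (SE 0.23, adjusted p = 0.0022), and -1.43 without ASP shSCR replicate 2.

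Krt8 and Krt18 encode the partners of one filament, and their decrease leaned on ASP shSCR replicate 2, the highest library for both. Krt18 measured 519, 576, 678 and 568 CPM in ASP shDHPS and 1007, 2019, 754 and 888 CPM in ASP shSCR (log2 change -0.995, SE 0.23, adjusted p = 0.0259). Without that control the change was -0.61 (adjusted p = 0.0479), and the call was lost without ASP shDHPS replicate 1, 2 or 4 (adjusted p up to 0.0889). Krt8 measured 604, 695, 853 and 765 CPM against 1076, 1741, 1036 and 1030 CPM (log2 change -0.74, SE 0.19, adjusted p = 0.0471). Its change was -0.54 without ASP shSCR replicate 2 (adjusted p = 0.0969), and leaving out any of 6 of the 8 libraries ended the call.

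**Figure D3:**
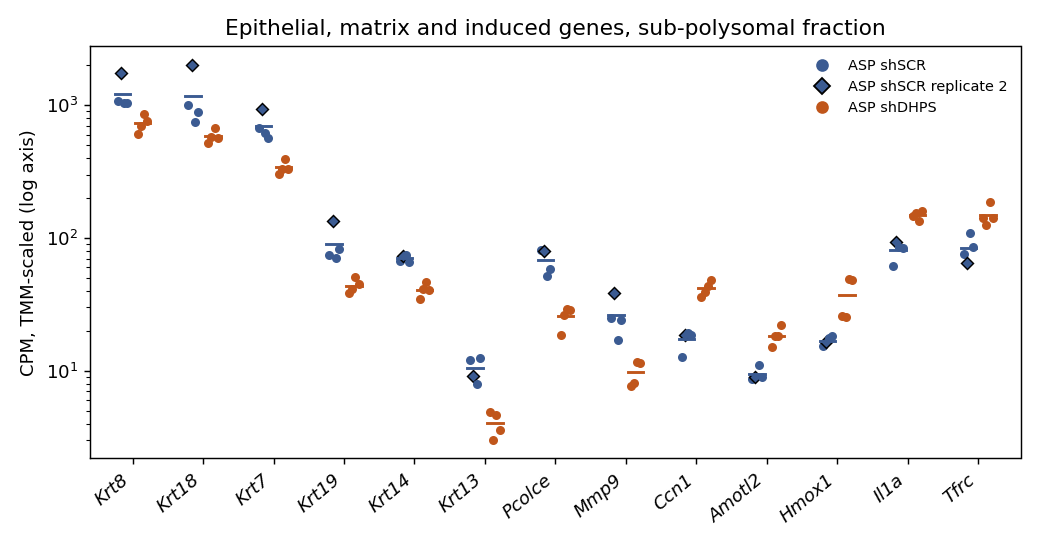
Sub-polysomal level of 13 genes in each library, in TMM-scaled CPM on a log axis; points are libraries, horizontal bars are group means and the diamond is ASP shSCR replicate 2. The 6 keratins, Pcolce and Mmp9 lie lower in every ASP shDHPS library than in any control, Ccn1, Amotl2, Hmox1, Il1a and Tfrc lie higher, and the diamond is the top point for Krt8, Krt18, Krt7, Krt19 and Mmp9.

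In the wider list of epithelial state genes, 5 of 21 measured members were lower (the keratins above without Krt13) and none was higher, with a median change of -0.24. Cdh1, which encodes E-cadherin, and Epcam did not pass the test with all 8 libraries. In the mesenchymal list, none of 9 members passed, and the median was 0.05. Fn1, which encodes fibronectin, measured 216 to 324 CPM in ASP shDHPS and 305 to 416 CPM in ASP shSCR (log2 change -0.40, SE 0.17, adjusted p = 0.234), and Snai1, a repressor of epithelial genes, had a log2 change of -0.47 (SE 0.18, adjusted p = 0.191).

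Increases were seen in several targets of YAP and its DNA-binding partners, the TEAD factors. Of 18 measured genes of this group, assembled after the values had been seen, Ccn1, Ccn2 and Amotl2 were higher, Gadd45a was lower and 14 did not pass, with a median change of 0.32. Amotl2, a scaffold protein of cell junctions, measured 15.0, 18.2, 18.2 and 22.3 CPM in ASP shDHPS and 8.63, 8.99, 11.0 and 8.94 CPM in ASP shSCR. Its groups did not overlap (log2 change 0.97, SE 0.18, adjusted p = 0.00453). Ccn2, a matricellular protein related to Ccn1, measured 7.91, 7.78, 9.25 and 11.7 CPM against 4.12, 5.31, 4.76 and 5.60 CPM (log2 change 0.89, SE 0.22, adjusted p = 0.032). The Ccn2 call was lost without ASP shDHPS replicate 1, 3 or 4 or ASP shSCR replicate 1 (adjusted p up to 0.155). Gadd45a, with overlapping groups and a log2 change of -0.88, became -0.62 without ASP shSCR replicate 2 (adjusted p = 0.125).

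The 250 bases before a RefSeq start site are shown for 3 of these genes, because TEAD factors bind the letters GGAATG. The sequences are from RefSeq (GRCm38.p6), written 5′ to 3′ on the gene's strand, and capitals mark GGAATG on either strand (CATTCC on the other). Both higher genes with an entry, Ccn1 (chr3:145649986-145650235, minus strand) and Amotl2 (chr9:102717554-102717803, plus strand), hold 1 match, at -103 and -65 from the start. Krt14 (chr11:100206031-100206280, minus strand), which was lower, also holds 1, at -66. This Krt14 window lies inside the GENCODE gene (chr11:100203162-100207548), so it is not the sequence before that gene's outermost start. The Krt7 window (chr15:101412153-101412402) also lies inside its GENCODE gene. Gadd45a, also lower, and the keratins Krt7, Krt8, Krt13 and Krt18 hold none in this window. Of 32817 promoter windows of this length, 12.6% hold the letters. The windows of the uncalled genes of this group are not given here, and whether TEAD factors act on these genes was not tested.
Ccn1: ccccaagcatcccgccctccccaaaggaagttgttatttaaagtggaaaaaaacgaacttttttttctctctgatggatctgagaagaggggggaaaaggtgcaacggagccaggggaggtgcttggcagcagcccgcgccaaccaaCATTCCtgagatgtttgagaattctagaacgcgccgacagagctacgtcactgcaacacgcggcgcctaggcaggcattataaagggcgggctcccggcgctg
Amotl2: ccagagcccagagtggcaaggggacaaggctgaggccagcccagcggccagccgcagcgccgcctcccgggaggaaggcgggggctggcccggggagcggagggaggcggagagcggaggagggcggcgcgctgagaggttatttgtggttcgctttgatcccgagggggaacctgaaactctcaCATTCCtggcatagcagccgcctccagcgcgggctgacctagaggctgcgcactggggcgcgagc
Krt14: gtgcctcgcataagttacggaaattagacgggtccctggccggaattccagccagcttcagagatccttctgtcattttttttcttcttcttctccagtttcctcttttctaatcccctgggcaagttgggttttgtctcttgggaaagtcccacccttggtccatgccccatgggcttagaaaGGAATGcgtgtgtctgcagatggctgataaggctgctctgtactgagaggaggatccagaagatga

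In the lists of collagen chains, collagen processing, matrix proteases and integrins, the calls were all decreases, while the matricellular genes Ccn1 and Ccn2 above were higher. None of 17 measured collagen chain genes was called, and their median change was 0.08. Among them, Col7a1 had a log2 change of -0.47 (SE 0.21, adjusted p = 0.249) and Col8a1 of 0.44 (SE 0.20, adjusted p = 0.267). Without ASP shSCR replicate 2 these changes were -0.21 (adjusted p = 0.659) and 0.52 (adjusted p = 0.236). Of 21 genes of collagen folding and crosslinking, 1 was lower. This was Pcolce, which enhances the cleavage of procollagen, at 18.5, 26.3, 29.3 and 28.9 CPM in ASP shDHPS and 81.3, 80.1, 51.5 and 58.8 CPM in ASP shSCR. The groups were far apart, and the means differed 2.64-fold (log2 change -1.40, SE 0.18, adjusted p = 0.000111).

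Of 17 matrix proteases and inhibitors, only Mmp9, the gelatinase B gene, passed. It measured 7.72, 8.17, 11.6 and 11.5 CPM against 25.1, 38.7, 17.2 and 23.9 CPM, and each control exceeded each silenced library (log2 change -1.42, SE 0.22, adjusted p = 0.000607). Pcolce and Mmp9 passed in all alternatives. Of 15 integrin genes, Itgb4, the partner of α6 in hemidesmosomes, and Itgb3 were lower (log2 changes -0.75 and -0.96). Itgb4 lost the call without ASP shDHPS replicate 1 or 2 (adjusted p = 0.0723 and 0.065), and Itgb3 without ASP shDHPS replicate 2 or 4 or ASP shSCR replicate 1 (adjusted p up to 0.0759).

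TGF-β signalling was among the pathways the study examined. Of 32 ligands, receptors and SMAD-pathway genes, 1 was lower, and the median change was 0.07. This was the corepressor Tgif2, with a log2 change of -0.79 (SE 0.17, adjusted p = 0.0158), lost without ASP shDHPS replicate 3 or 4 (adjusted p = 0.0704 and 0.082). Of 13 TGF-β response genes, Ccn1 and Ccn2 were higher, Pmepa1 was lower and 10 did not pass, with a median of -0.20. Pmepa1, which restrains TGF-β signalling, measured 125, 112, 80.1 and 95.8 CPM in ASP shDHPS and 191, 286, 136 and 157 CPM in ASP shSCR. Its groups did not overlap (log2 change -0.90, SE 0.20, adjusted p = 0.0167), but the call was lost without ASP shDHPS replicate 3 or 4 (adjusted p = 0.0747 and 0.0711).

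Hmox1, Tfrc and Il1a were among the genes that rose. Of 11 genes of ferritin and iron handling, Hmox1 and Tfrc were higher and none was lower, also without ASP shSCR replicate 2. The summed level of the list was 9285 to 10030 CPM in ASP shDHPS and 9846, 26050, 11150 and 9236 CPM in ASP shSCR, with Fth1, a ferritin subunit gene, at 14570 CPM in ASP shSCR replicate 2 and 4898 to 5562 CPM in the other controls. Hmox1, heme oxygenase 1, measured 25.8, 25.5, 49.1 and 48.2 CPM in ASP shDHPS and 15.3, 16.4, 17.6 and 18.2 CPM in ASP shSCR. The silenced libraries fell into a lower and a higher pair, both above every control (log2 change 1.14, SE 0.20, adjusted p = 0.00333). Tfrc, the transferrin receptor, measured 140, 125, 185 and 141 CPM against 75.4, 65.0, 109 and 85.5 CPM (log2 change 0.82, SE 0.17, adjusted p = 0.0117). Its call was lost without ASP shDHPS replicate 3 (adjusted p = 0.0607).

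Of 25 genes of NF-κB and inflammatory response, Il1a was higher, none was lower, and the median was 0.15. Il1a, the alarmin cytokine interleukin 1α, measured 147, 154, 134 and 160 CPM against 61.7, 93.6, 85.1 and 84.7 CPM. The groups were separate (log2 change 0.87, SE 0.15, adjusted p = 0.00328), and the call held in all alternatives. Without ASP shSCR replicate 2, 4 genes of this list were higher and the median was 0.40. Of 34 interferon-stimulated genes, Ifit2 was higher (log2 change 0.92, SE 0.20, adjusted p = 0.0165) and the median was -0.02. The Ifit2 call was lost without ASP shDHPS replicate 2 or 4 or ASP shSCR replicate 1 (adjusted p up to 0.0708). Outside this list Ifitm3, which restricts virus entry, was lower (241, 217, 237 and 270 CPM against 480, 417, 329 and 486 CPM, log2 change -0.83, SE 0.16, adjusted p = 0.00812), with the caveat that related Ifitm genes can share reads.

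Among 27 targets of the integrated stress response, Atf3 was higher, Cebpb and Ddit4 were lower and 24 did not pass, with a median of 0.04. Cebpb, a transcription factor gene, had a log2 change of -0.71 (SE 0.16, adjusted p = 0.0246), lost without ASP shDHPS replicate 1, 3 or 4 (adjusted p up to 0.089). Ddit4, an inhibitor of mTORC1 signalling, measured 217 CPM in ASP shSCR replicate 2 and 58.5 to 72.0 CPM in the other controls. Its log2 change of -1.12 became -0.49 without that library (adjusted p = 0.104), and the call was also lost without any 1 of the 4 ASP shDHPS replicates. In the same fit Ddit3 (0.83, adjusted p = 0.00373) and Chac1 (0.68, adjusted p = 0.0259) were higher, so that 3 genes of the list were then higher and 1 lower. Of 22 ER chaperone and folding genes 1 passed, Ero1b, with a log2 change of 0.70 (SE 0.18, adjusted p = 0.0471) that lost the call on leaving out any of 6 libraries. No gene passed among 15 heat shock chaperones (median 0.22), 35 lysosome and autophagy genes (median 0.15) and 37 proteasome genes (median 0.10). These medians were 0.12, 0.06 and -0.02 without ASP shSCR replicate 2.

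Ribosomal protein mRNAs had negative changes that did not pass the test. None of 81 cytosolic ribosomal protein genes passed the adjusted threshold, although 27 (against 8.08% of all genes and 10.4% of those with a mean of at least 50 counts) were lower at an unadjusted p of 0.05, all 81 changes were negative and the median was -0.37. Rps2 measured 929 to 1274 CPM in ASP shDHPS and 1448, 2760, 1307 and 1466 CPM in ASP shSCR (log2 change -0.68, SE 0.22, adjusted p = 0.107). Without ASP shSCR replicate 2 the Rps2 change was -0.38 (adjusted p = 0.295). The summed level of the ribosomal protein genes was 95620 to 142300 CPM in ASP shDHPS and 117800 to 210700 CPM in ASP shSCR. Its highest value was in ASP shSCR replicate 2, and without that library the median of the list was -0.21. Of 65 initiation factor genes, Eif1a, which encodes eIF1A, was higher (log2 change 0.78, SE 0.18, adjusted p = 0.0221), with the call lost without ASP shDHPS replicate 1, 3 or 4 or ASP shSCR replicate 1 (adjusted p up to 0.0838). In the same list Eif4ebp3, at 0 CPM in 5 of the 8 libraries, passed without ASP shSCR replicate 2, the only control in which it was detected. Of 8 elongation factor genes none passed (median -0.31), and Eef2, the translocation factor, had a log2 change of -0.53 (SE 0.24, adjusted p = 0.272). Without ASP shSCR replicate 2 the Eef2 change was -0.21 (adjusted p = 0.669). None of 20 cytosolic aminoacyl-tRNA synthetase genes passed (median 0.15).

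Polyamine genes supply the spermidine that DHPS uses. Of 18 measured, Paox and Azin2 were lower, none was higher, and the median was -0.09 (0.04 without ASP shSCR replicate 2). Paox, the acetylpolyamine oxidase that returns acetylated spermidine and spermine to the pool, measured 12.6, 15.5, 13.8 and 12.4 CPM in ASP shDHPS and 27.8, 28.7, 20.6 and 27.7 CPM in ASP shSCR. No silenced library reached the lowest control (log2 change -0.95, SE 0.17, adjusted p = 0.00333), and the call held in all alternatives. Azin2, an antizyme inhibitor, had a log2 change of -0.85 (SE 0.21, adjusted p = 0.0355), which became -0.47 without ASP shSCR replicate 2 (adjusted p = 0.125), and the call was also lost without any 1 of the 4 ASP shDHPS replicates. None of 14 genes of the aspartate receptor and CREB list passed (median -0.006).

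Hypoxia and glycolysis genes had a median of -0.40 over 22 genes, with Ankrd37 the only call, and that median was -0.03 without ASP shSCR replicate 2. Of 20 genes of aspartate and glutamate metabolism, the mitochondrial carrier Slc25a11 was lower (log2 change -0.57, adjusted p = 0.0382), and of 84 nuclear-encoded respiratory chain genes, Ndufa13 (log2 change -0.64, adjusted p = 0.019). Of 15 mitochondrially encoded RNAs, mt-Nd3 was lower (log2 change -0.63, adjusted p = 0.03), of 24 cholesterol genes, Fdft1 (log2 change -0.60, adjusted p = 0.0367), of 15 p53 targets, Phlda3 (log2 change -0.65, adjusted p = 0.0419), and of 17 ERK feedback genes, Spry1 (log2 change -0.60, adjusted p = 0.0336). The calls of Slc25a11, Ndufa13, mt-Nd3, Fdft1, Phlda3 and Spry1 were lost on leaving out any of 6, 4, 5, 6, 6 and 5 of the 8 libraries. No gene passed among 25 G1/S genes (median 0.10), 21 G2/M genes (median 0.07), 71 histone genes (median 0.40, of which only 14 had a mean of at least 50 counts, with a median of 0.13), 9 nuclear long noncoding RNAs (median 0.10) and 17 snoRNA host RNAs (median 0.18). Without ASP shSCR replicate 2 the medians of the G1/S, G2/M and full histone lists were 0.06, 0.03 and 0.18. The snoRNA host RNA Snhg12 was higher without ASP shSCR replicate 2 (0.77, adjusted p = 0.0185, beside 0.56 and 0.147 with all libraries), and Phlda3 lost its call there (-0.47, adjusted p = 0.123).

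Among the most abundant called genes, Mapk6, which encodes the atypical kinase ERK3, measured 384, 262, 191 and 215 CPM in ASP shDHPS and 134, 107, 179 and 174 CPM in ASP shSCR (log2 change 0.83, SE 0.20, adjusted p = 0.0314). Its call was lost without ASP shDHPS replicate 1 or 2 or ASP shSCR replicate 1 or 2 (adjusted p up to 0.149, and 0.0554 without ASP shSCR replicate 2). Plin2, a lipid droplet coat protein, and Cst6, a cysteine protease inhibitor, were higher (log2 changes 0.60 and 0.71), and each lost the call on leaving out any of 6 libraries, with adjusted p = 0.0797 and 0.0504 without ASP shSCR replicate 2. Tkt, the transketolase of the pentose phosphate pathway, was lower (log2 change -0.91), and was -0.57 without ASP shSCR replicate 2 (adjusted p = 0.0646), and the call was also lost without ASP shDHPS replicate 1, 2 or 4 (adjusted p up to 0.109).

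The medians of the polyamine, interferon, p53 target, proteasome, mesenchymal and ER chaperone lists took the other sign without ASP shSCR replicate 2, and those of collagen chains and of collagen folding and crosslinking became 0.19 and -0.13.

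**Figure D4:**
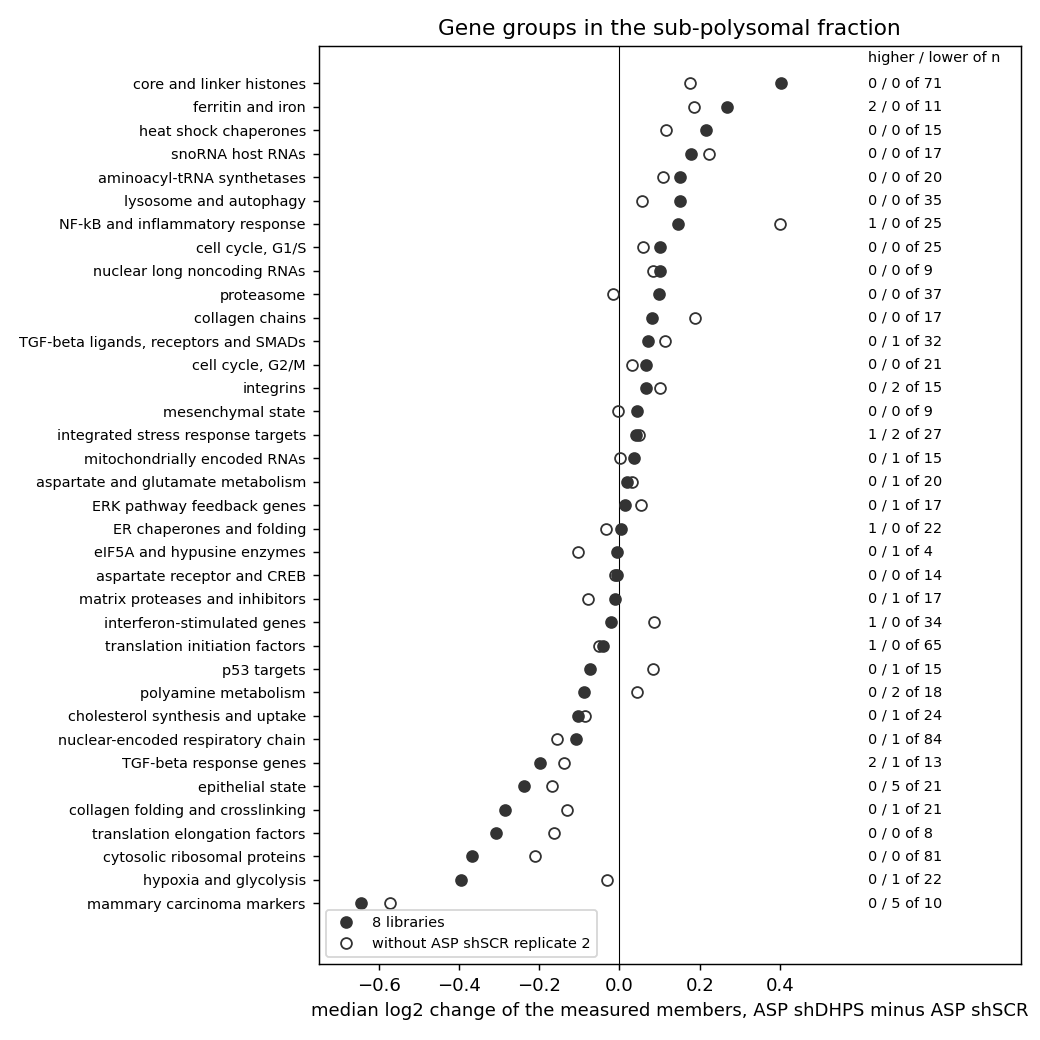
Median log2 change (ASP shDHPS minus ASP shSCR) of the measured members of each gene list with at least 4 of them, with all 8 libraries (filled) and without ASP shSCR replicate 2 (open); the numbers are genes called higher and lower of those measured. The median of the mammary carcinoma markers lies lowest, at -0.64 and -0.57. Those of hypoxia and glycolysis (-0.40), ribosomal protein (-0.37) and elongation factor genes (-0.31) follow and move to -0.03, -0.21 and -0.16 without that library. No list has more than 5 called genes in either direction, and of all genes 0.580% were called higher and 1.10% lower.

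Among the 50 hallmark gene sets in the deposited collection, those with most called genes were the TNFα signalling set (7 higher and 5 lower of 182), the early estrogen response set (2 higher and 9 lower of 176) and the p53 pathway set (4 higher and 6 lower of 190). Of all genes, 0.580% were called higher and 1.10% lower, and of those with a mean of at least 50 counts 2.53% were called. The medians of these 3 sets were 0.07, -0.08 and -0.06, and the sets share genes. Without ASP shSCR replicate 2, the TNFα set had 10 higher and 3 lower genes (median 0.15), and the early estrogen response set 1 and 12 (median -0.05). The p53 set then had 6 and 3 (median -0.005). Over all 17757 genes, 91 were higher and 144 lower in that fit.

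Called genes also differed in transcript composition. The 103 higher genes had a median longest transcript of 3841 nt and a GC content of 46.6%, the 196 lower genes 2076 nt and 55.5%, and all genes 2592 nt and 50.1%. Genes that were not called leaned the same way, with 47.4% for those with a positive change and 53.6% for those with a negative change among genes with a mean of at least 50 counts. Across 10811 such genes, the rank correlation of the change with GC content was -0.47 and with transcript length 0.348, where the genes share the same 8 libraries and are not independent. The libraries varied in this respect within groups, with rank correlations between GC content and a library's deviation from its group mean of -0.425 (ASP shSCR replicate 3) to 0.34 (ASP shSCR replicate 2). With each library's trend on GC content and length removed, 69 genes were higher and 130 lower, and 166 of the 299 calls were kept. Dhps (-1.81), Gpnmb (1.85), Ccn1 (1.37), Mgat3 (-2.20), Krt7 (-1.03), Pcolce (-1.16) and Mmp9 (-1.31) kept theirs, and Krt18 (-0.76, adjusted p = 0.088) and Krt8 (-0.53, adjusted p = 0.149) did not. In all, 14 of the 57 called genes described by rule lost their call in this fit. These were also Cebpb (-0.71 to -0.37, adjusted p = 0.21), Phlda3 (-0.65 to -0.36, adjusted p = 0.242), Ndufa13 (-0.64 to -0.38, adjusted p = 0.166), Azin2 (-0.85 to -0.58), Ddit4 (-1.12 to -0.85), Slc25a11 (-0.57 to -0.40), Spry1 (-0.60 to -0.45) and mt-Nd3 (-0.63 to -0.60) among the lower genes, and Mapk6 (0.83 to 0.65, adjusted p = 0.0841), Ero1b (0.70 to 0.49), Fastkd1 (1.33 to 1.15) and Acpp (1.22 to 1.03) among the higher ones. All kept their sign, and for mt-Nd3, Fastkd1 and Acpp the change stayed about as large, so a lost call alone does not show how much of a change moves with composition.

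The polysomal fraction of the same pellets was set beside these values. With all 8 polysomal libraries, 1 gene, Gpnmb, passed the same test (0.00563%), and 2264 had an unadjusted p under 0.05. One polysomal library, ASP shSCR replicate 1, stood apart, with rank correlations of 0.875 to 0.878 with its group and a TMM factor of 0.738. Without it, 23 genes were higher (0.130%) and 185 lower (1.04%). Of the genes called in the sub-polysomal fraction, 11 of 103 and 15 of 196 were then also called in the same direction, and the medians of their polysomal changes were 0.30 and -0.44. The fractions come from the same pellets, so they are not independent.

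In that polysomal fit of 7 libraries, Dhps had a log2 change of -1.78 (SE 0.25, adjusted p = 0.000596), Gpnmb of 2.46 (SE 0.27, adjusted p = 2.17e-05), Prnd of 1.42 (SE 0.26, adjusted p = 0.00644) and Ccn1 of 1.41 (SE 0.29, adjusted p = 0.0139). Atf3 (1.11, adjusted p = 0.0423) and Mgat3 (-1.98, adjusted p = 0.0317) passed as well. So did Ankrd37 (-3.175, adjusted p = 0.0245), which measured 56.04 CPM in the polysomal library ASP shSCR replicate 2 and 1.1 and 3.475 CPM in the other controls. The other genes with the largest sub-polysomal changes did not pass. Among the 6 keratins, Krt13 was also lower in the polysomal fraction (-1.27, SE 0.31, adjusted p = 0.042). Krt19, Krt14, Krt7, Krt18 and Krt8 had polysomal changes of -0.45 (SE 0.25), -0.24 (SE 0.27), -0.14 (SE 0.25), 0.09 (SE 0.25) and 0.18 (SE 0.27), none past the test. Mapk6 had a polysomal change of -0.21 (SE 0.24) beside 0.83 in the sub-polysomal fraction.

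Whether a change differed between the fractions was tested in a single fit with the pellet as a term, and 0 genes passed, while 1762 had an unadjusted p under 0.05. DESeq2 called 46 genes with a more positive and 2 with a more negative sub-polysomal change, and edgeR without the pellet ASP shSCR replicate 1 called 60 and 6. For Krt7 the sub-polysomal change was lower than the polysomal one by 0.78 on the log2 scale (SE 0.39, adjusted p = 0.513), and for Pcolce by 0.79 (SE 0.36, adjusted p = 0.481). In counts simulated for this design, 34% of genes given a difference of 1 and 99% of those given a difference of 2 on the log2 scale were recovered. The simulation gave all genes the same spread, with no pellet effect and no outlying library, and changed only genes with a mean of at least 50 counts. The real polysomal libraries spread more (biological coefficient of variation 0.379, and 0.279 without ASP shSCR replicate 1), so these shares overstate the recovery in the real data. Of the 88 genes selected by rule, 0 passed in the fit of all pellets, and 0 of the 73 to which DESeq2 gave an adjusted p passed by it. Without the pellet ASP shSCR replicate 1, 2 of them passed, Ifit2, with a sub-polysomal change more positive by 1.52 (SE 0.36, adjusted p = 0.0332), and the histone gene H2ac19, with one more negative (adjusted p = 0.0183). H2ac19 was at 0 CPM in 2 of the 3 polysomal controls of that fit, so the size of its difference is not given.

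**Figure D5:**
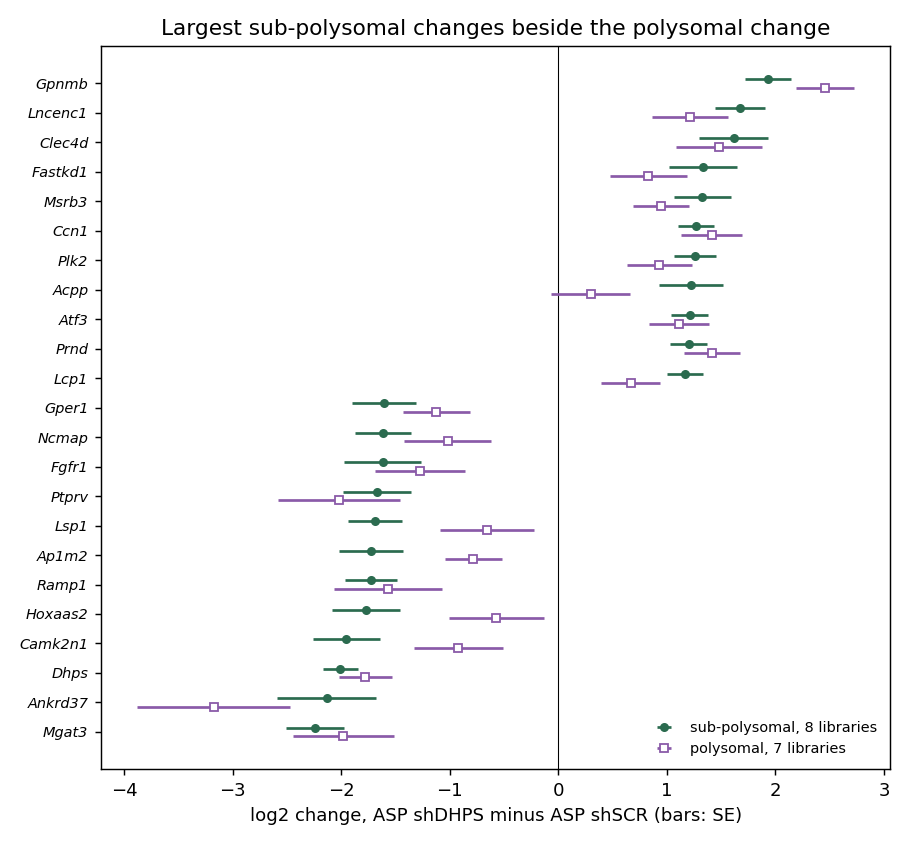
Log2 change (ASP shDHPS minus ASP shSCR) of Dhps and the other reported genes with the largest sub-polysomal changes, in the sub-polysomal fraction (circles, 8 libraries) and the polysomal fraction (squares, 7 libraries); bars are standard errors. All of them lie on the same side of 0 in both fractions, and Gpnmb, Dhps, Ccn1 and Mgat3 have polysomal changes of 2.46, -1.78, 1.41 and -1.98. In the polysomal fraction only these, Prnd, Atf3 and Ankrd37 passed edgeR's test. The others did not, such as Acpp (0.298, adjusted p = 0.768) and Hoxaas2 (-0.57, adjusted p = 0.605).

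Grin2d encodes an NMDA receptor subunit, and its knockdown in the same medium (ASP shGRIN2D, n = 4) gave a further comparison in the sub-polysomal fraction. Against the same ASP shSCR libraries, 19 genes were higher and 37 lower in ASP shGRIN2D (0.315%). ASP shDHPS differed from ASP shGRIN2D directly, without the shared controls, for 129 genes (0.726%), 54 higher and 75 lower. This difference uses the same ASP shDHPS libraries as the comparison with ASP shSCR, so these comparisons are not independent. Dhps separated the knockdowns, with a log2 difference of -1.95 (adjusted p = 2.3e-08) and a change of -0.06 in ASP shGRIN2D against ASP shSCR.

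Genes higher in ASP shDHPS than in ASP shGRIN2D included Prnd (log2 difference 1.65, adjusted p = 3.27e-06), Il1a (1.12, adjusted p = 0.000279), Lcp1 (1.08, adjusted p = 0.000279) and Ifit2 (1.08, adjusted p = 0.0252). Genes lower in ASP shDHPS than in ASP shGRIN2D included Mgat3 (-1.74, adjusted p = 0.00222), Camk2n1 (-1.69, adjusted p = 0.00292), Ncmap (-1.65, adjusted p = 0.00235), Itgb3 (-1.58, adjusted p = 0.000197), Ramp1 (-1.48, adjusted p = 0.0148) and Gper1 (-1.47, adjusted p = 0.0135). These values are from a fit of all 16 sub-polysomal libraries, in which ASP shSCR replicate 2 enters the scaling and the estimate of spread but not the difference itself. In a fit of the 8 libraries of these conditions, 65 genes were higher and 100 lower, and each of the 10 genes above passed as well (adjusted p up to 0.00725).

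For other genes the direct difference between the knockdowns did not pass the test, which does not show that their levels were equal. Krt7 was lower in both against the shared controls, by a log2 change of -1.14 in ASP shGRIN2D (adjusted p = 0.000904) beside -1.03 in ASP shDHPS, and the direct difference was 0.11 (adjusted p = 0.887). Mmp9 changed by -1.25 (adjusted p = 0.00628) beside -1.42, Pcolce by -0.82 (adjusted p = 0.027) beside -1.40, and Paox by -0.76 (adjusted p = 0.0288) beside -0.95. Their direct differences were -0.18, -0.58 and -0.19, and none passed. Both knockdowns were set against the same ASP shSCR libraries, so changes of the same sign can arise from those libraries alone. How much of the agreement did so was not tested. Gpnmb was 1.10 higher in ASP shGRIN2D than in the controls without passing (adjusted p = 0.0919), and its direct difference of 0.83 also did not pass (adjusted p = 0.213). Between control spheroids without added aspartate and ASP shSCR, no gene passed the adjusted threshold in this fraction by edgeR. Of the 17757 genes, 871 had an unadjusted p under 0.05. The lack of calls does not show that levels were equal.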

How the data were processed

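Libraries of sub-polysomal RNA from 4T1 spheroid pellets were prepared by the authors with a stranded mRNA kit. Per the labels and the study's methods, the authors trimmed reads with Trim Galore 0.6.6, checked them with FastQC 0.11.9, mapped them to GRCm39 with STAR 2.6.1, quantified them with Salmon 1.4.0 and rounded the expected counts to whole numbers. The annotation release and strand setting are not given in the sources used here. The deposited gene set collection (unit: other) gave the hallmark sets. The deposited tables of the authors' own comparisons (differences in fold change, p-values and gene set enrichment) were not used. Counts were fitted as deposited, with TMM factors over the libraries of each fit, by edgeR 4.0.16 (glmQLFit, glmQLFTest; R 4.3.3) with condition as the only term, two-sided, with Benjamini-Hochberg adjustment over all 17757 genes and a threshold of 0.05. DESeq2 1.42.0 was an alternative. The fit was tested on simulated data, where it recovered 85% of genes given a sub-polysomal log2 change of 1 and 100% of those given 2, with 5 false calls. The simulated counts had the same spread for all genes and no outlying library, and only genes with a mean of at least 50 counts were changed.

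The genes named were Dhps; up to 12 per direction with the largest change among called genes with a mean of at least 50 counts, non-overlapping groups and an established symbol; the 5 most abundant called per direction; and per list up to 4 called genes with the smallest p, or 2 uncalled ones. Of the genes with the largest change, 1 is not reported here. Genes outside this rule (Krt13, Amotl2, Gadd45a and those under other observations) were chosen after their values were seen. The members and lists were chosen with earlier results of these data known. Coordinates, transcript length and GC content are from GENCODE M21 (GRCm38), not the build of the counts.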

Additional observations from a re-analysis of the deposited data

Results flagged for a closer look

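Values of 1 library far from the other 3 of its group were looked for among the 88 named genes, over 176 groups of 4, with Dixon's 95% limit. This gave 17 such values, beside 8.8 for independent normal values, and 8 of the 17 were in ASP shSCR replicate 2. The genes were selected from these same data and can move together within a library, so 8.8 is not a chance expectation for them. In that library Ankrd37 measured 36.07 CPM (others 4.81 to 7.13), Ddit4 216.8 CPM (58.5 to 72.0), Azin2 102.7 CPM (43.1 to 50.03), Tkt 861 CPM (386 to 430) and Krt8 1741 CPM (1030 to 1076). Rps2 measured 2760 CPM there (1307 to 1466), Eef2 14450 CPM (6627 to 7964) and Dhps 32.09 CPM (39.4 to 40.8).

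In the other controls, Ccn1 measured 12.71 CPM in ASP shSCR replicate 1 (others 18.7 to 19.4), Paox 20.59 CPM in replicate 3 (27.7 to 28.7) and Atf3 9.392 CPM in replicate 4 (7.78 to 8.04). In ASP shDHPS, Eif1a measured 65.71 CPM in replicate 2 (91.7 to 92.5), and in replicate 3 Mgat3 measured 1.673 CPM (2.04 to 2.11), Cst6 140.8 CPM (119 to 121) and Tug1 265.7 CPM (203 to 213). In ASP shDHPS replicate 4, Camk2n1 measured 2.071 CPM (1.27 to 1.404) and Snai1 19.88 CPM (14.3 to 15.2).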

How the results depend on the processing

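Counts of genes higher and lower were 103 and 196 in the reported fit. They were 281 and 388 by DESeq2's Wald test, 109 and 107 with library totals only, and 69 and 130 with the GC and length trend removed, an alternative chosen after seeing the data, as was leaving out the polysomal library ASP shSCR replicate 1. Leaving out 1 library at a time gave 32 to 207 higher and 71 to 296 lower genes. DESeq2 size factors, upper-quartile factors, both filters on low counts and the fit of all 16 sub-polysomal libraries kept each count within 1.5 times. With the replicate number as a block, 482 and 538 genes were called. The labels' numbers are not stated to pair pellets across groups, and same-numbered libraries deviated together with correlations of 0.203, 0.22, 0.017 and 0.306, so that replicates 1, 2 and 4 but not 3 correlated best with their own number. Rpl39 (-0.66, adjusted p = 0.000525), Rps2 (-0.62, adjusted p = 0.00218) and Eef2 (-0.46, adjusted p = 0.021), not called in the reported fit, were called lower with the block, as was Hsp90ab1 (-0.51, adjusted p = 0.0169). Of the uncalled named genes, 10 were called higher with it, namely Hspa9, Atp6v1h, Lamp2, Tug1, Snhg12, H2ac19, H2bc4, Rrm2, Ccnd2 and Bub1b (log2 changes 0.469 to 0.73, adjusted p up to 0.0432).

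For the difference between fractions, 0 genes in either direction became 46 and 2 by DESeq2, and 0 to 60 and 0 to 6 on leaving out 1 pellet. For ASP shDHPS against ASP shGRIN2D, 54 and 75 became 121 and 149 by DESeq2, 141 and 150 with the replicate block, and 31 to 57 and 44 to 80 on leaving out 1 library. The cause of these shifts was not tested.

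Of the 57 called named genes, 28 kept their call in all 17 alternatives, and no called gene changed sign. The uncalled Dohh took the other sign with upper-quartile factors (-0.005), and ranged from -0.03 to 0.079 on leaving out 1 library. With the GC and length trend removed, the Dohh change was 0.296 (adjusted p = 0.355). Eif5a took the other sign with library totals only (0.028) and with the GC and length trend removed (0.142), and ranged from -0.186 to 0.072 on leaving out 1 library. Depth was lowest for the 24 of the 299 calls with a mean under 50 counts.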

Other observations

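Genes of the NRF2 and glutathione systems, which handle oxidants and foreign compounds, did not move in a single direction. Of 19 measured, Hmox1 was higher, Gpx2, Gsta3, Abcc3, Mgst3 and Tkt were lower and 13 did not pass, with a median change of -0.06. Gpx2, a glutathione peroxidase, measured 1.08, 1.49, 2.17 and 1.30 CPM in ASP shDHPS and 4.35, 3.44, 5.38 and 3.90 CPM in ASP shSCR (log2 change -1.50, SE 0.31, adjusted p = 0.0114, edgeR). Gsta3, a glutathione S-transferase whose relatives can share reads, had a log2 change of -1.49 (SE 0.34, adjusted p = 0.0225), and both were lower in every silenced library than in any control. Nqo1, a classical NRF2 target, measured 145, 149, 169 and 184 CPM against 113, 83.9, 114 and 134 CPM, without passing (log2 change 0.54, SE 0.16, adjusted p = 0.0799). Without ASP shSCR replicate 2, Hmox1 was higher and 4 of the 5 were lower, with Tkt lost (adjusted p = 0.0646).

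Of 12 S100 genes, which encode small calcium-binding proteins, S100a14 and S100a16 were lower and 10 did not pass. S100a16 measured 41.8, 54.9, 44.7 and 40.4 CPM in ASP shDHPS and 108, 112, 92.6 and 103 CPM in ASP shSCR, so the groups lay far apart (log2 change -1.19, SE 0.15, adjusted p = 8.52e-05). S100a14 had a log2 change of -1.15 (SE 0.19, adjusted p = 0.00218), and both calls held without ASP shSCR replicate 2. Of 16 circadian clock genes, Dbp and Bhlhe41 were lower, at log2 changes of -1.34 and -0.66, and neither passed without that library (adjusted p = 0.0958 and 0.0887). Lars2, the mitochondrial leucyl-tRNA synthetase gene, passed the test (log2 change 1.77, SE 0.44, adjusted p = 0.0371) with overlapping groups, at 2500, 920, 497 and 5680 CPM in ASP shDHPS and 848, 472, 466 and 1021 CPM in ASP shSCR. These groups and genes were chosen after their values were seen. Of all genes, 0.580% were called higher and 1.10% lower.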
